A study of Mus musculus with 3 samples.

Results

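The T cell receptor signalosome was examined as a set of 39 genes, chosen by name for their place in the pathway: the CD3 chains, the coreceptors, the proximal kinases, the adaptors and effectors, and the enzymes that restrain the signal. All 39 were found by gene identifier among the 50600 genes of the deposited tables. Total RNA had been sequenced from primary T-helper 1 cells of C57BL/6NJ mice, as 3 biological replicates of a single group. Each replicate has its own biosample record while all point to the same donor entry, and neither sex nor age is given. The tables' header lines name input files marked 16 hr, a time on which the labels are silent. There was no other condition, so genes were compared inside each library and each difference was read against how far the 3 replicates lay apart.

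The T cell receptor has no enzyme of its own. Its CD3 chains carry paired tyrosine motifs (ITAMs) that Lck phosphorylates, Zap70 docks on the phosphorylated chains, and Zap70 in turn phosphorylates the scaffolds Lat and Lcp2 (SLP-76). These gather Plcg1, Vav1 and Ras activators, and so lead to calcium release, actin remodelling, and the MAP kinase and NF-kB pathways. Phosphatases, Csk, ubiquitin ligases and diacylglycerol kinases limit the signal.

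The 3 libraries held between 2568928 and 4764598 gene counts, and the 39 members took 0.627%, 0.542% and 0.416% of the counts in replicates 1, 2 and 3. Levels are given as TPM, which is counts per base of gene length scaled to the same sum in every library. Of the 7 T cell markers 7 reached 1 TPM in every library, with a summed level of 628 to 1393 TPM. Of 6 Th1 markers only Il12rb2 and Stat4 did so, and the list had a sum of 19.9 to 22.8 TPM. Most of it was Il12rb2 (14.4, 15.5 and 15.1 TPM in replicates 1, 2 and 3), which overlaps an opposite-strand gene. Stat4, which does not, had 64, 11 and 22 counts. Tbx21, the defining Th1 regulator, had 2, 10 and 2 counts and Ifng had 1, 0 and 0, so the name T-helper 1 rests on the labels here. The marker counts, low ones included, hold only under the strand setting used, which is described further on and was not tested. Among the other cell types none of 5 B cell, 5 NK cell, 5 dendritic cell and 5 neutrophil markers reached 1 TPM in every library. The 2 of 6 macrophage markers that did were Cd68 and Csf1r, which overlaps an opposite-strand gene, while Lyz2, Adgre1, Itgam and Cd14 were at 0 counts. The summed level was 113 to 140 TPM for the macrophage list, nearly all from Csf1r, 0 to 8.53 for B cells, 0.303 to 1.89 for NK cells, 0.719 to 4.80 for dendritic cells and 0 for neutrophils. Cd8a was at 0 counts, while Cd8b1 had 17.4 TPM ± 10.7 (SD, n = 3). Ms4a1 and Pax5, both B cell markers, were at 0 counts as well. The part of other cells in the members' levels was not tested. In bulk RNA, fewer cells of a type and less RNA per cell cannot be told apart.

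Of the 39 members 38 reached 1 TPM in every library, against 39.8% of 21764 protein-coding genes. The exception was Tec. The median of the members' mean levels was 44.2 TPM, against 0.378 TPM over all coding genes and 11.3 TPM over the 9932 coding genes with a mean of at least 1 TPM. From Ptpn6 at 226 TPM to Tec at 1.73 TPM, the levels formed a nearly continuous order. Only 12 of the 38 steps between neighbours in that order ran the same way in all 3 libraries. A single step, from Plcg1 to Ptpn22, was larger than the larger SD of its pair. That SD includes the shift in TPM between libraries, so it does not measure spread within a library. With only 12 steps alike in all 3 libraries, ranks of adjacent genes should not be read as differences.

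**Figure D1:**
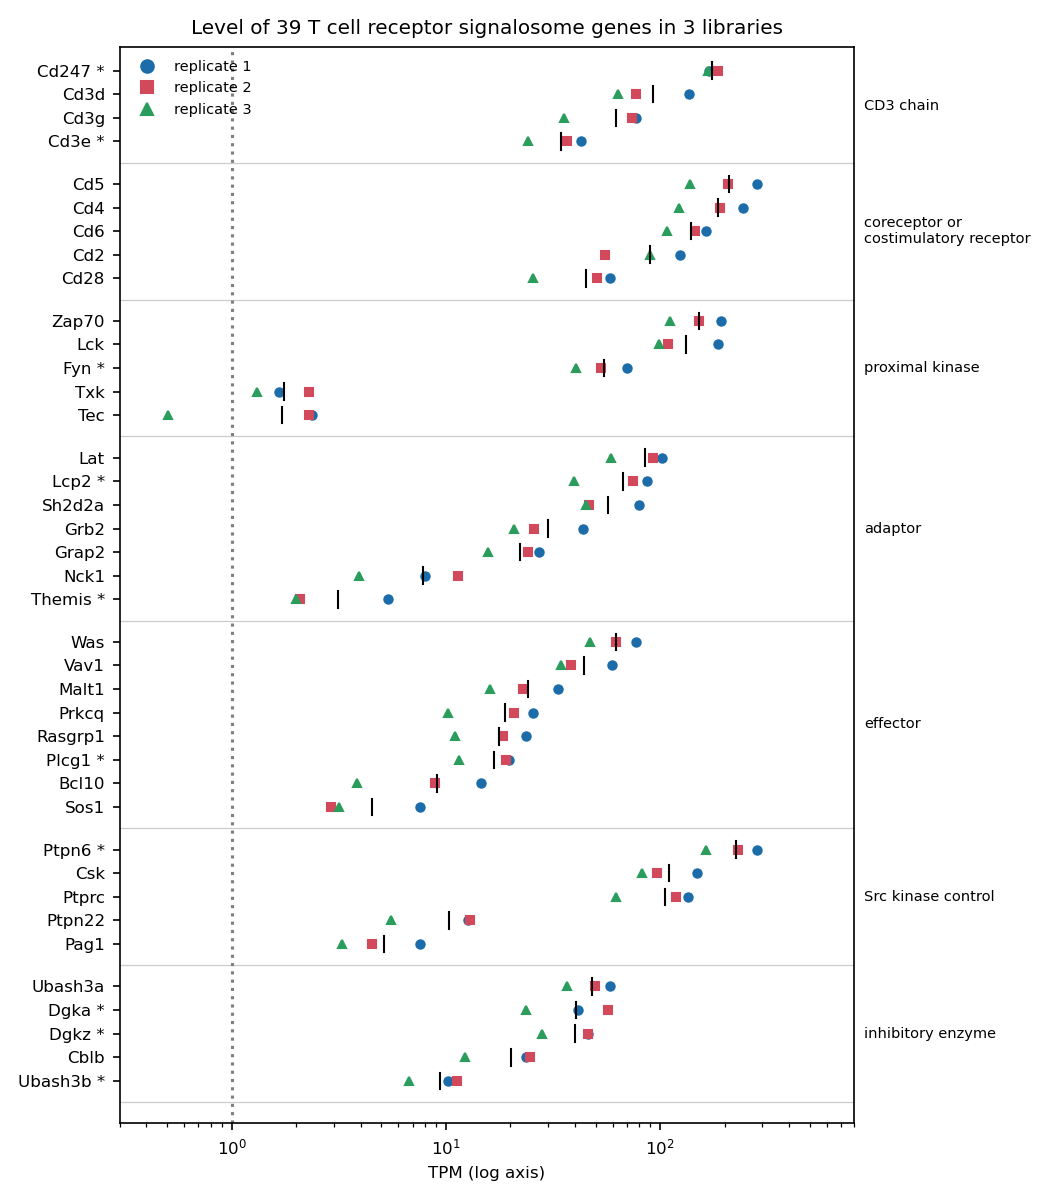
Level of each member in TPM (log axis) in replicates 1 to 3 (points), with the mean as a black bar, grouped by role. Asterisks mark the 10 members with an exon inside an opposite-strand gene, and the dotted line is 1 TPM. Levels span from 1.73 TPM for Tec to 226 TPM for Ptpn6, and replicate 3 lies lowest for 37 of 39 members.

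The CD3 chains, which couple the receptor to its kinases, were not equally abundant. Cd247, the zeta chain with the most ITAMs, had 169, 187 and 167 TPM in replicates 1, 2 and 3. Cd3d had 136, 77.3 and 63.8 TPM, Cd3g had 77.2, 74.1 and 35.8 TPM, and Cd3e had 42.6, 36.7 and 24.2 TPM. In TPM, Cd247 was the highest chain and Cd3e the lowest in each of the 3 libraries. Of the summed CD3 level, Cd247 made up 49.0% ± 8.88 (SD, n = 3), Cd3d 24.9% ± 6.25, Cd3g 16.7% ± 3.93 and Cd3e 9.38% ± 0.926. Cd247 exceeded Cd3e 3.96-, 5.09- and 6.91-fold in replicates 1, 2 and 3. Cd3d exceeded Cd3e 3.19-, 2.11- and 2.63-fold. Both Cd247 and Cd3e share exon bases with an opposite-strand gene, described further on, while Cd3d and Cd3g do not. Cd3d and Cd3g alone can therefore be set against each other free of such overlap: Cd3d had the higher level in 3 of 3 libraries, with near-equal values in replicate 2. That order rests on the exon lengths of 1815 bases for Cd3d and 3269 for Cd3g, since Cd3g had more counts in each library (569, 309 and 186 against 557, 179 and 184).

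Cd3g, Cd3d and Cd3e lie side by side on chromosome 9 (mm10), where Cd3g (44969572 to 44980431) and Cd3d (44981786 to 44987339) are transcribed away from each other from starts 1354 bases apart, and Cd3e (44998740 to 45009627) follows 11.4 kb beyond Cd3d. The 150 bases upstream of the annotated starts are shown for the 4 chains, and for Zap70 and Tec as the highest and lowest of the proximal kinases, to set sequence beside level. They come from RefSeq on GRCm38.p6, run 5′ to 3′ on the strand of the gene, and have matches to 4 motifs in capitals.
Cd3d (chr9:44981636-44981785, plus strand): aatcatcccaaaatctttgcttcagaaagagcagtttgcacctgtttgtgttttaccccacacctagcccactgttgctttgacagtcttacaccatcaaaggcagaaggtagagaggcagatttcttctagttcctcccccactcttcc
Cd3g (chr9:44980432-44980581, minus strand): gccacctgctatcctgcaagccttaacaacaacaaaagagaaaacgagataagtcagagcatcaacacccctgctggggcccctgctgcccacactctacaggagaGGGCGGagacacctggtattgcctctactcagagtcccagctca
Cd3e (chr9:45009612-45009761, minus strand): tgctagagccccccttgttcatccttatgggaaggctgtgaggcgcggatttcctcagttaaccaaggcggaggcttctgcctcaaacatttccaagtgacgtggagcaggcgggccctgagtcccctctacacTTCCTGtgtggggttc
Cd247 (chr1:165788531-165788680, plus strand): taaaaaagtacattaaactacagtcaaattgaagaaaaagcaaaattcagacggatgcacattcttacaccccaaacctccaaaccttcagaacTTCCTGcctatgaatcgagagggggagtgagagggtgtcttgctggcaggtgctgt
Zap70 (chr1:36761648-36761797, plus strand): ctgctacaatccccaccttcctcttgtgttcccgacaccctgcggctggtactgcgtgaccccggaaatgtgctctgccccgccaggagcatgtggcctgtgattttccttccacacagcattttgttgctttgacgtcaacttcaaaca
Tec (chr5:72868449-72868598, minus strand): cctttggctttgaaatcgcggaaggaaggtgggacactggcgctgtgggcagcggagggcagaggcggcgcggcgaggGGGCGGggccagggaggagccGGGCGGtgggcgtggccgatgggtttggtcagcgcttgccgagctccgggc

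Both strands were searched for 4 motifs in the same 150 bases of each gene. The TATA box was searched as TATAAA. The GC box bound by Sp1 was searched as GGGCGG. For ETS family factors only the letters CAGGAA were searched, and other forms of the site were not. For RUNX factors the letters used were TGTGGT. RefSeq start sites matched 32 of the 39 members, and the entry listed first in the table was used for genes with several. The TATA box letters were in 0 of the 32, and occurred in 8.08% of 27025 promoters of the same length. The ETS letters were present in 11 of 32 (16.4% of all promoters) and the GC box in 11 of 32 (29.0%). The RUNX letters were in 2 of 32 (8.53%), these being Lck and Was. Among the sequences printed, Cd3e and Cd247 held the ETS letters on the reverse strand, where they read TTCCTG. Cd3g held the GC box and Tec held it at 2 places. The RefSeq starts of Cd3e and Tec lie inside the genes as deposited, which reach to 45009627 and 72868483, so their windows enter those genes. The match of Cd3e falls inside the deposited gene, and those of Tec fall outside it. Cd3d and Zap70 held none of the 4 as searched, which does not show that they lack sites for these factors. The upstream sequence of Tec had 72.7% G and C, against a median of 56.3% in the 32 members and 54.0% in all promoters.

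The coreceptors and costimulatory receptors were the most abundant group, with a median of 139 TPM over 5 genes, none of which overlaps an opposite-strand gene. Cd5, a scavenger receptor family protein that dampens receptor signals, had 282, 207 and 138 TPM. Cd4, the coreceptor that brings Lck to the receptor, had 243, 191 and 123 TPM. Cd6, the relative and neighbour of Cd5 at 50.4 kb on chromosome 19, had 163, 146 and 108 TPM. Cd5 exceeded Cd6 in 3 of 3 libraries by a log2 ratio of 0.55 ± 0.22 (SD, n = 3), although Cd6 had more counts for its longer exons in replicates 2 and 3. Cd2, an adhesion receptor, had 124, 55.4 and 90.0 TPM, lowest in replicate 2. Cd28, the main costimulatory receptor, had 58.5, 51.0 and 25.5 TPM and was the lowest of the group in each library.

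Zap70 and Lck led the proximal kinases. Zap70 (chromosome 1 from 36761798 to 36782818, mm10) had 193, 151 and 111 TPM, and Lck (chromosome 4 from 129548344 to 129573641) had 187, 109 and 98.3 TPM. Fyn, the other Src family kinase of T cells, had 69.9, 53.2 and 40.7 TPM. Lck stood 2.68-, 2.06- and 2.42-fold above Fyn. The shares of the 3 abundant kinases in the summed level of the 5 were 44.7% ± 2.53 for Zap70, 38.2% ± 3.48 for Lck and 16.1% ± 0.655 for Fyn (SD, n = 3). The Tec family kinases on the list were close to the floor, and their shares varied more, from 0.20% to 0.723% for Tec and from 0.365% to 0.719% for Txk. Txk had 41, 32 and 23 counts, or 1.66, 2.29 and 1.32 TPM. Tec had 20, 11 and 3 counts, or 2.37, 2.30 and 0.504 TPM. By an exact 95% Poisson interval, which covers counting error only, the 3 counts of Tec in replicate 3 allow 0.104 to 1.47 TPM, so a level of 1 TPM is not outside it. The 2 genes are neighbours on chromosome 5, 2.9 kb apart on the same strand, and their order was not settled, with Tec higher in 2 libraries and Txk in the other.

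The adaptors ranged widely. Lat (chromosome 7 from 126363824 to 126369570, mm10), the membrane scaffold, had 102, 92.9 and 59.3 TPM, and Lcp2, its cytosolic partner, had 86.8, 74.4 and 39.5 TPM. Sh2d2a, which binds Lck, had 80.0, 46.5 and 45.1 TPM. The lower adaptors were Grb2, which brings the Ras activator Sos1 to Lat (30.1 TPM ± 12.05; SD, n = 3), Grap2 (Gads), which links Lcp2 to Lat (22.3 ± 5.89), Nck1, a link to the actin machinery (7.78 ± 3.76), and Themis, which sets signal strength in thymocytes (3.14 ± 1.92). The counts of Themis were 141, 31 and 37, highest in replicate 1.

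The 8 effectors had a median of 18.3 TPM. Was, the actin regulator WASP, led them with 77.5, 62.6 and 47.3 TPM, followed by the Rac exchange factor Vav1 with 59.5, 38.5 and 34.6 TPM. The NF-kB adaptors Malt1 and Bcl10, which act as a complex, stood at 24.1 TPM ± 8.66 and 9.12 ± 5.36 (SD, n = 3). Prkcq, the kinase upstream of them, had 18.8 ± 7.84, the Ras activator Rasgrp1 had 17.7 ± 6.41, and Plcg1, the phospholipase that makes diacylglycerol and inositol trisphosphate, had 16.8 ± 4.59. Sos1 was the lowest effector with 152, 33 and 45 counts (4.54 TPM ± 2.61). Its level in replicate 1 was over those of the other libraries, which lay close together.

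Enzymes that set the state of Lck and its targets included the highest member of all. Ptpn6, the phosphatase SHP-1, had 283, 230 and 164 TPM. Csk, which phosphorylates the inhibitory tail of Lck, had 149, 96.9 and 82.6 TPM, and Ptprc (CD45), which removes that phosphate, had 135, 118 and 62.1 TPM. Those 3 stood far over the remaining 2 of the group: Ptpn22, a phosphatase that partners with Csk, had 10.4 TPM ± 4.18, and Pag1, the membrane anchor of Csk, had 5.13 ± 2.22 (SD, n = 3). Every library kept Ptpn6, Csk and Ptprc over Ptpn22 and Pag1. Of the inhibitory enzymes, Ubash3a, a TCR-associated protein of the STS family, had 58.1, 49.7 and 36.7 TPM, and its phosphatase relative Ubash3b (STS-1) had 10.2, 11.2 and 6.70 TPM. The diacylglycerol kinases Dgka and Dgkz had 40.7 TPM ± 16.6 and 40.2 ± 10.5, and Cblb, a ubiquitin ligase, had 20.2 ± 6.93.

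Members were then compared with related genes inside each library, in 30 pairs made of subunits of 1 complex, paralogs, or T cell genes and their counterparts from B and myeloid cells. In 26 of the 30 pairs the log2 ratio of TPM + 1 had the same sign in all 3 libraries, the member named first being higher in 25. In the pairs with Lyn, Syk, Blnk and Themis2, which had 0 counts in each library, no ratio below 0 was possible. No such share was computed for pairs of other genes. By the two-sided exact sign-flip permutation test each of the 26 had p = 0.25, the smallest that n = 3 allows, and a Benjamini-Hochberg adjusted p = 0.288 over the 30 pairs, so none can pass 0.05. The direction and the spread are therefore given as descriptions.

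The margin of the T cell form over the B cell or myeloid form ran from a bound of at least 553-fold for Zap70 to ratios near the limit of the counts for Themis and Txk. Syk, the B cell counterpart of Zap70, had 0 counts in each library. Taking 3 counts per library as what a count of 0 allows, Zap70 was at least 553-fold higher than Syk in replicate 3, where this bound is lowest. The Src kinase Lyn and the adaptor Blnk also had 0 counts in each library, so that Lck was at least 190-fold higher than Lyn and Lcp2 at least 125-fold higher than Blnk in the library of the lowest bound. Themis exceeded Themis2, likewise at 0 counts, at least 2.72-fold. Lyn overlaps an opposite-strand gene and Syk, Blnk and Themis2 do not. Of the members compared here, Lcp2, Themis and Plcg1 overlap one, while Zap70, Lck, Lat and Txk do not. Plcg2, the phospholipase of B cells, had 15, 0 and 6 counts, and Plcg1 exceeded it 12.8- and 13.1-fold in replicates 1 and 3. Lat2, a relative of Lat with an opposite-strand gene, had 5.25, 8.67 and 6.24 TPM, and Lat exceeded it 19.5-, 10.7- and 9.51-fold. Btk had 5, 4 and 4 counts, and Txk stood 2.36-, 2.30- and 1.65-fold over it, at counts too low to fix the ratio.

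Ratios between paralogs that T cells share with other cells differed in size. Wasl, the widely expressed relative of Was, had 4.96, 6.23 and 3.16 TPM, and Was stood 15.6-, 10.04- and 15.0-fold over it. Vav2 had 14.2, 12.4 and 7.55 TPM, so that Vav1 stood 4.20-, 3.11- and 4.59-fold over it. Vav3 had 5.69, 5.35 and 2.30 TPM, and Vav1 was 10.5-, 7.19- and 15.0-fold higher. Vav1 thus had the highest TPM of the Vav genes in each library. Ptpn11 (SHP-2), a relative of Ptpn6, had 31.1, 27.8 and 15.4 TPM, and Ptpn6 stood 9.11-, 8.26- and 10.7-fold over it. Ubash3a stood 5.68-, 4.42- and 5.48-fold over Ubash3b. Cbl had 15.2, 14.1 and 7.74 TPM, and Cblb was 1.55-, 1.76- and 1.58-fold over it, a small difference that rests on length, since Cbl had more counts in each library (422, 222 and 152 against 336, 200 and 123). Grap2 was the exception in direction. Grap, its relative, had 279, 239 and 143 TPM against 27.1, 24.1 and 15.7 TPM for Grap2, a log2 ratio of -3.23 ± 0.11 (SD, n = 3). Grap overlaps an opposite-strand gene, Slc5a10.

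In the remaining 4 pairs the libraries did not share a sign, and 3 of them are given here. The log2 ratio of Tec to Txk was -0.09 ± 0.49, that of Sos1 to Sos2 was -0.11 ± 0.35 and that of Dgka to Dgkz was -0.03 ± 0.28 (SD, n = 3). The exact sign-flip p was 1 for Tec and Dgka and 0.75 for Sos1, with an adjusted p of 1 and 0.804. Sos2 had 6.56, 4.51 and 3.18 TPM beside 7.56, 2.90 and 3.17 for Sos1. Dgka had 41.4, 57.0 and 23.8 TPM beside 46.2, 46.3 and 28.1 for Dgkz. The libraries spread over a wide range for these pairs, which does not show that the levels were equal.

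**Figure D2:**
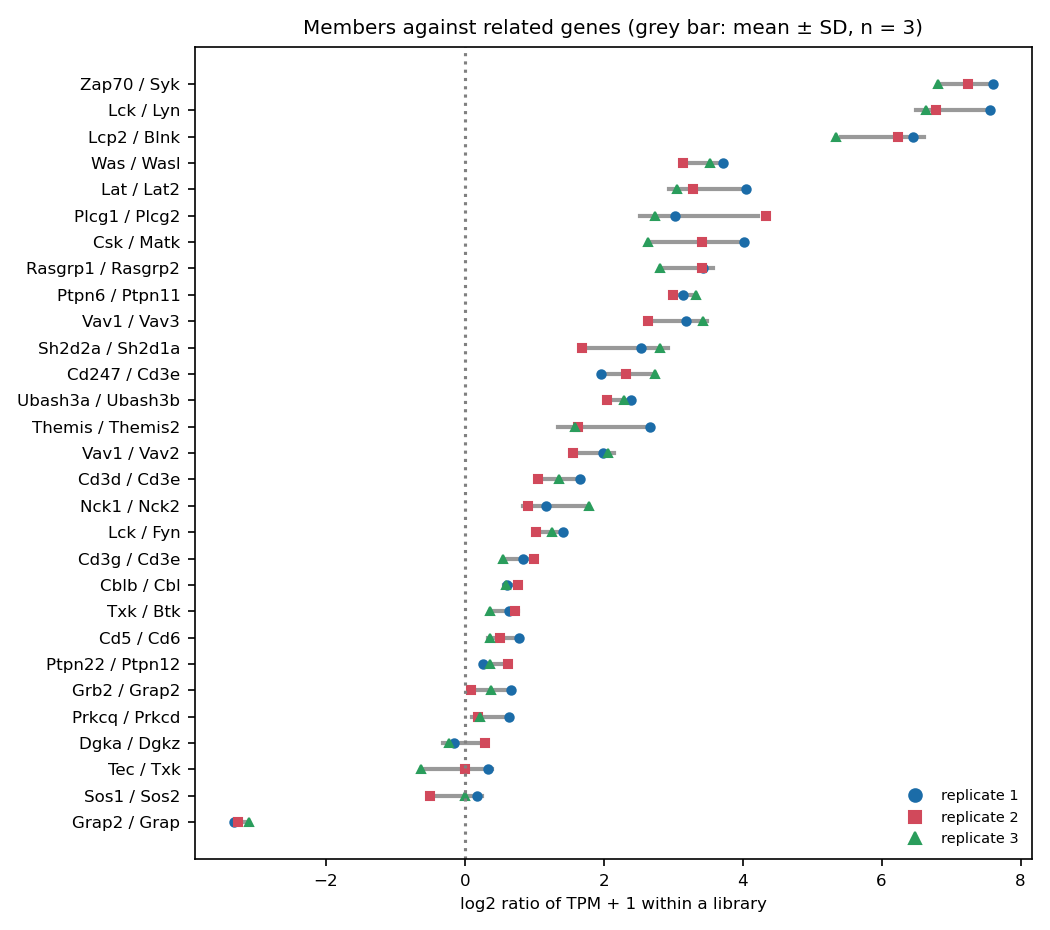
Log2 ratio of TPM + 1 of a member to a related gene within each library (points) for 29 of the 30 pairs, with mean ± SD over the 3 libraries as grey bars. Of the 29 pairs shown 26 keep their sign in all 3 libraries, Grap2 to Grap alone below 0, and the size of ratios to genes at 0 counts depends on the pseudocount.

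Exons that meet a gene on the other strand bear on 10 of the 39 members: Cd3e, Cd247, Fyn, Lcp2, Themis, Plcg1, Ptpn6, Ubash3b, Dgka and Dgkz. Among coding genes the share was 27.1%. In 8 of the 10, all but Fyn and Ubash3b, exons overlap exons, as in 22.1% of coding genes. The tables were counted with strand setting 1 on files named stranded. The kit is not given in the sources used here, and whether reads were assigned to the strand they came from was not tested. If the setting were opposite to the kit, counts given to a gene would be reads of its opposite strand. The TPM, rank and detection call of every member, marker and other gene therefore hold only under the setting used. The same limit applies to the bounds against Syk, Lyn, Blnk and Themis2.

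The overlapping genes held many counts. Gm48719, an antisense gene of 361 exon bases inside Cd3e, had 2580, 1557 and 2418 counts, against 392, 191 and 157 for Cd3e with its 4080 exon bases. Per kilobase, Gm48719 had 74.4, 92.1 and 174 times the counts of Cd3e. Gm20531, opposite Ptpn6, had 4914, 2191 and 4437 counts against 1789, 822 and 729, or 5.61, 5.44 and 12.4 times the counts per kilobase. In both, the opposite gene was higher in each library and furthest from the member in replicate 3.

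The bases that the gene pairs share are the place where a read cannot be told apart except by its strand. Of the 135 exon bases common to Cd3e and Gm48719, 30 are coding and lie at the end of the last coding exon of Cd3e, in the cytoplasmic tail that carries the ITAM. Gm20531 covers 195 coding bases of Ptpn6, and Gm27206 and Zhx3 both cover a 102-base coding exon of Plcg1. The coding sequences follow, 5′ to 3′ on the strand of the member, read from the GENCODE vM21 transcripts, with shared bases in capitals.
Cd3e (chr9:44999534.0-44999587.0, minus strand): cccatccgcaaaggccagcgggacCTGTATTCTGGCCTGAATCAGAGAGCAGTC
Plcg1 (chr2:160751784.0-160751885.0, plus strand): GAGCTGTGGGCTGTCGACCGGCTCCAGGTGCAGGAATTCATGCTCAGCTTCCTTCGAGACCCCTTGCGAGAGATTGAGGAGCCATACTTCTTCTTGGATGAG
Ptpn6 (chr6:124732300.0-124732494.0, minus strand): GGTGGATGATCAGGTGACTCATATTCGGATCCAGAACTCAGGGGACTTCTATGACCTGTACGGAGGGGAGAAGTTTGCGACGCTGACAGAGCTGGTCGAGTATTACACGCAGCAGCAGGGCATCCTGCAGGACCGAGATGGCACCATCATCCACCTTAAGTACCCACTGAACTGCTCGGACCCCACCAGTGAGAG
In the direction of Gm48719 the bases it shares with Cd3e coding sequence read GACTGCTCTCTGATTCAGGCCAGAATACAG, and the reverse complement of each stretch was found in a transcript of the opposite gene.

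Cd247 (chromosome 1 from 165788681 to 165877277, mm10) was the member with the most exon-to-exon overlap, with 3007 of its 5329 exon bases inside exons of Pou2f1 (Oct-1), a transcription factor gene that is transcribed toward it. Of the 8 members that share exon bases it stood highest over its opposite gene. Cd247 had 2029, 1270 and 1416 counts and Pou2f1 785, 657 and 754, so Pou2f1 held 0.124, 0.166 and 0.171 times the counts per kilobase of Cd247. The remaining exon-to-exon overlaps were shorter, although 7028 of the 7857 exon bases of Plcg1 and all 4459 of Lcp2 lie inside the body of an opposite gene. Pmel, a pigment cell gene that shares 105 bases with Dgka, had 580, 402 and 682 counts against 445, 346 and 180. Gm9821 shares 222 bases with Dgkz and had 169, 146 and 285 counts against 653, 370 and 280. Zhx3 shares 379 bases with Plcg1 and had 694, 480 and 809 counts against 350, 192 and 144, and Gm27206 had 466, 329 and 418. Themis shares 153 bases with the pseudogene 4930519F09Rik, which had 168, 75 and 134 counts against 141, 31 and 37. Lcp2 shares 88 bases with 4930469K13Rik, which had 99, 39 and 88 counts against 873, 423 and 280. The opposite genes of Fyn (Gm16365, with 33, 20 and 33 counts) and Ubash3b (Gm35657, with 0 counts in each library) share no exon bases with them.

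With each of the 8 members set against the opposite gene of longest exon overlap, 6 had fewer counts per kilobase than that gene in the mean over libraries, against 64.9% of 2510 coding genes with such a partner and 10 counts or more in every library. The median log2 ratio of member to opposite gene was -0.83, -0.92 and -2.35 in replicates 1, 2 and 3. In 8 of 8 members the ratio of opposite to member counts was highest in replicate 3, against 55.2% of the 2510 genes. Over the latter the median log2 ratio was -1.03, -1.14 and -1.63, also lowest in replicate 3.

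**Figure D3:**
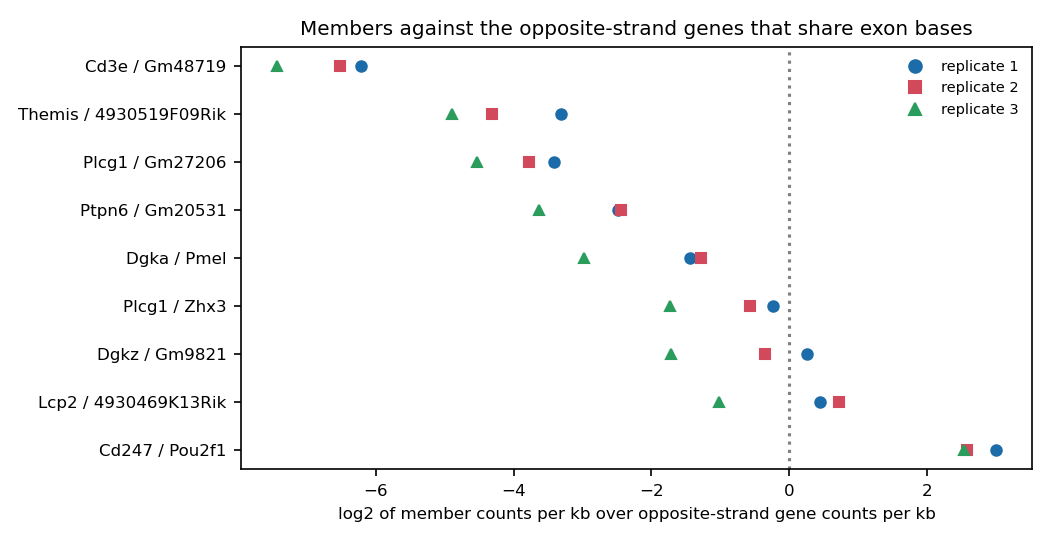
Log2 of a member's counts per kilobase over those of the opposite-strand gene that shares exon bases with it, within each library (points). Plcg1 appears against both of its opposite genes. Points left of the dotted line have more counts per kilobase on the opposite gene, and replicate 3 lies furthest left for each member shown.

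Replicate 3 was lowest in TPM for 37 of 39 members, against 67.5% of coding genes with a mean of at least 1 TPM. The exceptions were Cd2 and Sos1, both lowest in replicate 2. The medians over coding genes followed the same order of libraries, and the cause was not tested. The median deviation from a gene's mean log2(TPM + 1) was 0.40, 0.10 and -0.46 over the members in replicates 1, 2 and 3. Over the 9932 coding genes it was 0.32, 0.11 and -0.41. Among genes free of opposite-strand overlap, replicate 3 was lowest for 27 of 29 members, against 74.8% of 6228 coding genes. With TPM recomputed over genes free of opposite-strand overlap, replicate 3 was lowest for 10 of the 29 such members, against 41.0% of 6228 coding genes of that kind. Their median deviations were then 0.16, -0.08 and 0.01. Single members were therefore also read on a scale that takes the library shift into account.

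On the log2 scale of CPM with TMM scaling (a scaling of library totals in edgeR), the median SD over 38 members was 0.26, against 0.36 over the 8128 coding genes that passed the same filter on low counts. Tec did not pass it. As log2(TPM + 1), which keeps the library shift, the 2 medians were 0.50 and 0.49, and with no filter on low counts they were 0.27 and 0.22, so the lower spread of the members did not hold under those settings. The members also lie at higher levels than the coding genes, and no matching on level was made. The members of largest SD were Cd2 (0.64), Bcl10 (0.63), Sos1 (0.61), Themis (0.61) and Nck1 (0.52). Cd2 had 486, 123 and 249 counts and a deviation of -0.74 from its mean in replicate 2. Bcl10 had 150, 52 and 28 counts, with deviations of 0.61, 0.05 and -0.65. Nck1, with 86, 70 and 30 counts, was highest in replicate 2, and Sos1 and Themis were highest in replicate 1. Counts under 50 in a library limit the precision of Bcl10, Sos1, Themis and Nck1, whereas Cd2 had over 100 counts in every library.

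At the other end, Cd6 (SD 0.03), Ubash3a (0.04), Grap2 (0.08), Was (0.08) and Lat (0.09) had the smallest SDs on this scale. That order depended on the scaling: with TMM over genes free of opposite-strand overlap the SD was 0.20 for Cd6, 0.18 for Ubash3a and 0.19 for Was, and the smallest were those of Cd4 (0.08), Rasgrp1 (0.09) and Ptprc (0.09). With TMM over all genes, Cd6 stood at 7.91, 7.88 and 7.95 on the log2 CPM scale. The CD3 chains did not share an order of libraries. Cd247 stood at 8.61, 8.89 and 9.23 in replicates 1, 2 and 3, highest in replicate 3. Cd3d stood at 6.74, 6.07 and 6.29, lowest in replicate 2, while Cd3e at 6.24, 6.16 and 6.06 and Cd3g at 6.77, 6.85 and 6.30 were lowest in replicate 3. The overlap of Cd247 with Pou2f1 covers 56.4% of its exon bases, and its part in these values was not tested.

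**Figure D4:**
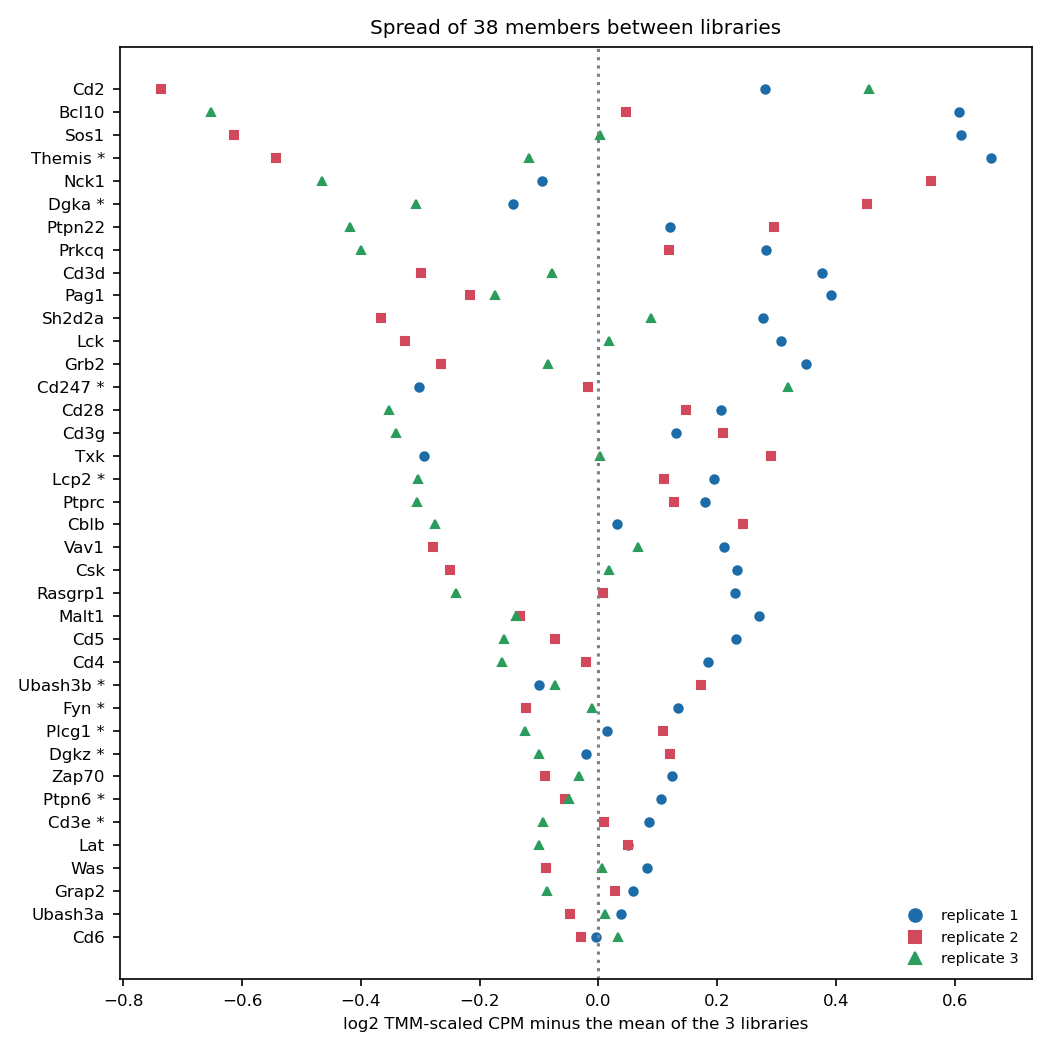
Deviation of each member's log2 TMM-scaled CPM from its mean over the 3 libraries (points), ordered by SD with the largest at the top. Asterisks mark members with an opposite-strand gene. Cd2, Bcl10, Sos1 and Themis have an SD of 0.61 to 0.64, and Cd6 has 0.03, which is 0.20 when scaled over genes free of opposite-strand overlap.

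Further genes were read from 6 lists of 76 genes. The lists cover the pathways that the signalosome feeds, other T cell adaptors and regulators, and B cell and myeloid counterparts. Of the 76 genes 57 reached 1 TPM in every library, against 39.8% of protein-coding genes. In the calcium arm 11 of 12 did, among them the calcineurin subunits Ppp3r1 (27.8 TPM ± 16.8; SD, n = 3) and Ppp3cb (12.3 ± 4.60), and the channel gene Orai1 (12.1 ± 9.00). The catalytic subunit Ppp3ca had 12, 27 and 2 counts. In the Ras and MAP kinase arm 11 of 13 did, among them the MAP kinase kinase Map2k2 (24.8 ± 6.32). Rasgrp2 and Nf1 did not. Ppp3cb and Orai1 overlap opposite-strand genes.

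All 9 genes of the NF-kB branch were detected, led by Ikbkg (37.7 TPM ± 4.88; SD, n = 3), which has an opposite gene, Tab2 (20.2 ± 8.95), Map3k7 (18.9 ± 10.05) and Chuk (18.2 ± 10.04). All 9 genes of the PI3 kinase arm were as well, led by Akt1 (70.9 ± 21.4), the lymphocyte catalytic subunit Pik3cd (56.2 ± 10.1), Akt2 (13.5 ± 5.72) and the lipid phosphatase Inpp5d (11.1 ± 3.13). Among 18 other T cell adaptors and regulators 16 were detected, led by the actin nucleator subunit Arpc2 (244 ± 85.1), Rac2 (103 ± 35.4), the receptor Cd226 (60.8 ± 25.2) and Cd27 (48.3 ± 9.94), whose gene has an opposite gene. The transmembrane adaptors Lime1 and Sit1 were the 2 that were not, with 1, 0 and 0 and with 23, 0 and 26 counts. Of 15 B cell and myeloid counterparts 1 was detected, Lat2 (6.72 ± 1.76), which has an opposite gene, and 11 were under 1 TPM in every library. Cd79a, a B cell receptor chain, had 27, 0 and 17 counts, and like Sit1 was at 0 in replicate 2 alone. Syk, Blnk, Lyn, Blk, Themis2 and Rasgrp3 were at 0 in each library.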

How the data were processed

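Gene counts of 3 RNA-seq libraries were analysed. The authors deposited raw counts for each gene. Per the file headers, the counting tool was featureCounts v1.4.6-p4, run for fragments with both ends mapped and with strand setting 1. Its exon models were GENCODE vM13 for mm10. Aligner version and kit: not given in the sources used here. Gene lengths, in bases, were also deposited by the authors. The labels say total RNA but point to a protocol named for poly(A) RNA.

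TPM and FPKM were computed from counts and lengths. Symbols and biotypes came from GENCODE vM21 (50376 of 50600 identifiers), and sequences from its transcripts and RefSeq. A gene counted as overlapped when an exon lay inside the body of an opposite-strand gene in the deposited coordinates. A gene was called detected when no library was under 1 TPM. Log ratios used a pseudocount of 1. For bounds, 3 counts stood in for 0, and exact Poisson intervals are at 95%. Spread used edgeR 4.0.16 (filterByExpr, TMM, prior count 1) on the whole table, with DESeq2 1.42.0 size factors as an alternative. Pairs were tested with the exact sign-flip test. The spread code was tested on simulated data of 50600 genes with 200 genes raised 8-fold in 1 library. All 200 had an SD above 1, which a rise of that size all but fixes. Over 6406 unchanged genes the median SD was 0.256, against 0.289 expected from the coefficient of variation of 0.2 that was set.

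The members, lists and pairs were chosen with earlier results of these data known. All 39 members are given. Those with values by library are the CD3 chains, Cd4, Lck, Zap70, Lat, the 8 highest, the 5 of largest SD, those under 1 TPM in a library, both genes of a described pair (some as counts) and those sharing exon bases with an opposite gene. Others were added after their values were seen. In the further lists the 4 highest and up to 4 undetected genes are named, except that some genes and 1 pair are not reported here. Because the replicates share a donor record, p-values and SDs measure the spread between these samples, which may be partly technical. Python 3.11.15, SciPy 1.17.1 and R 4.3.3 were used.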

Additional observations from a re-analysis of the deposited data

How the results depend on the processing

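Detection fell from 38 to 32 of 39 members, and from 57 to 41 of 76 further genes, when 5 TPM was asked for in every library. In the other settings run on all genes, 38 or 39 members and 57 to 64 further genes were detected. Among genes with no opposite-strand overlap, with TPM over such genes, 29 of 29 members and 40 of 54 further genes were. The median member level of 44.2 TPM became 22.3 in FPKM. Over the 29 members with no opposite-strand overlap it was 45.0 TPM, and 173 TPM when overlapped genes were left out of the total. Cd3d, for one, went from 136, 77.3 and 63.8 to 437, 273 and 355 TPM in replicates 1, 2 and 3. Overlapped genes of all kinds thus held most of the TPM in each library, and the reason was not tested. Among coding genes 27.1% are overlapped, while the share among genes of all kinds was not computed. With a replicate left out, the median level over all members was 38.2 to 49.2 TPM. The median SD of 0.263 (coding genes 0.356) was 0.231 (0.341) with DESeq2 size factors, 0.499 (0.490) as log2(TPM + 1), 0.266 (0.215) with no filter, 0.196 (0.287) over the non-overlapped genes, and ran from 0.161 to 0.185 (0.254 to 0.329) when 1 replicate was dropped and each SD rested on 2 libraries. Members with an opposite-strand gene numbered 21 with opposite gene bodies extended by 5 kb and 5 with opposite coding genes only. The pairs of shared sign numbered 12 of 15 with neither gene overlapped, a smaller set. Of 180 pair ratios under alternatives 174 kept their sign. For the 26 pairs of the same sign in all 3 libraries, a new pseudocount or a dropped replicate cannot turn the sign. Those outcomes were fixed in advance, and only ratios in CPM and the 4 pairs of mixed sign could turn. Of the 6 that turned, 2 were Cd5 to Cd6 (-0.16) and Cblb to Cbl (-0.26) in CPM, where gene length plays no part. With 1 replicate left out, Tec to Txk ranged from -0.31 to 0.17, Sos1 to Sos2 from -0.25 to 0.089 and Dgka to Dgkz from -0.19 to 0.071, being 0.17 without replicate 3, 0.089 without replicate 2, and 0.03 and 0.071 without replicates 1 and 3. The cause was not tested. No paired analysis was possible because there was 1 group. With 3 libraries no sign-flip p can fall below 0.25, and members under 50 counts in a library are limited by depth.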
